A study of Rattus norvegicus with 8 samples.

Results

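Nodose neurons that carry Ntsr1 or Cyp26b1 together with Itgae or Gpr65 were described in 12 pools of rat nodose ganglia. Nuclei were selected on measured values: a nucleus was a member when Ntsr1 plus Cyp26b1 summed to 1 UMI (unique molecular identifier, 1 counted transcript) or more and Itgae plus Gpr65 also summed to 1 or more. The rule took 1388 of 36740 kept nuclei, or 3.78%. The 4 genes of the rule, and Htr3b as a given marker, came from the leading genes of a cluster of these same nuclei, so their levels in members are given as a description.

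The nodose ganglion holds the cell bodies of vagal sensory neurons that innervate the viscera. Ntsr1 encodes a receptor for neurotensin, a peptide released by gut endocrine cells and neurons, and Cyp26b1 encodes an enzyme that breaks down retinoic acid. Itgae encodes the alpha chain of an integrin best known on lymphocytes in epithelia, Gpr65 a proton-sensing receptor known from vagal neurons that innervate intestinal villi, and Htr3b a subunit of the serotonin-gated ion channel of vagal afferents.

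The animals were Long Evans rats of 8 weeks, experimentally naive, with no treatment and no transgene. Each pool combined the left or the right ganglia of 6 rats, and each combination of labelled sex and side had 3 pools, written ML, MR, FL and FR with their number. The rat numbers in the labels imply that both sides drew on the same rats, but no label ties a left pool to the right pool of its number, and the sides were compared unpaired. P-values measured the spread between these pools, which averages over the rats within each.

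Y-linked genes (Ddx3y, Eif2s3y, Kdm5d, Usp9y) went against the sex label of 2 left pools. Their summed level, in counts scaled to library size (CPM), was 2.88 in ML1 where male-labelled pools otherwise ranged from 84.4 to 91.3, and 88.6 in FL1 where female-labelled pools otherwise ranged from 2.73 to 3.95. Sexes are therefore written as labelled, and results by side are also given without both pools. The pools held 1738 to 4849 nuclei and 73 to 199 members each. Members made up 2.92% to 4.2% of the nuclei in each of the 8 sublibraries. The nuclei carried 34798 distinct barcodes, and 142 members shared theirs with a nucleus of another sublibrary.

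Cyp26b1 was the more frequent of the first pair of genes. Among members, 972 (70.0%) had a Cyp26b1 UMI, 591 (42.6%) had an Ntsr1 UMI, and 175 (12.6%) had both. Itgae was found in 961 members (69.2%) and Gpr65 in 978 (70.5%), and 551 (39.7%) had both. All 4 genes were found in 97 members (6.99%).

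Many members sat at the edge of the rule. The smallest passing sums, 1 UMI in each, were those of 317 members (22.8%), with a median depth of 5361 UMIs per nucleus, while 435 members (31.3%) had 2 or more in both sums, at a median of 9343 UMIs. Just outside were 1140 nuclei with Ntsr1 or Cyp26b1 and no UMI of Itgae or Gpr65, and 5207 with Itgae or Gpr65 and no UMI of Ntsr1 or Cyp26b1. The rule favoured deep nuclei: the median was 7443.5 UMIs in members and 2680 in all kept nuclei.

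Most members fell in clusters classed as neuron-like. Of the 1388, 1262 fell among 26471 neuron-like nuclei and 126 among 9577 nuclei of other classes, of which 88 were satellite glia-like, 9 myelinating Schwann-like, 8 skeletal muscle-like and 21 in a class left unnamed here, led by Adgrf5 and Adgrl4, genes of vascular endothelium. The 1262 include 21 members of cluster 24, led by muscle genes such as Ttn and Myh4, 9 of cluster 19, led by Th with Tyrp1 and Apoe, and 114 of cluster 13, led by genes of satellite glia. The rule was met by 4.77% of neuron-like nuclei (median depth 3050 UMIs) and by 1.32% of the non-neuronal ones (median 1860). After every nucleus was thinned to 1000 UMIs the shares were 0.459% and 0.128%, and only 128 members remained. A UMI of Ntsr1 or Cyp26b1 was then found in 2.17% of neuron-like and 1.57% of non-neuronal nuclei, close to each other, and a UMI of Itgae or Gpr65 in 8.20% and 4.01%. In the class led by Adgrf5 the first of these shares was 3.30%, above that of the neurons, and in myelinating Schwann-like nuclei it was 0.777%. The non-neuronal nuclei thus differed among themselves and are not known to lack these genes, and the part of free RNA among members was not tested.

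Neurons with a UMI of the first pair of genes more often had a UMI of the second pair. Of neurons with Ntsr1 or Cyp26b1, 61.6% also had Itgae or Gpr65 (53.6% to 69.1% across pools), against 17.5% of neurons without (14.7% to 22.2%). At 1000 UMIs per nucleus the shares were 21.1% (11.1% to 44.4%) and 7.91% (6.63% to 9.91%). The pool ranges did not overlap at either depth. The rule genes were chosen from the leading genes of a cluster of these same nuclei. Finding them together more often was therefore partly fixed by that choice, and the shares are a description.

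Htr3b, which the rule did not use although it was a given marker, was found in 1175 members (84.7%). At 1000 UMIs per nucleus, Htr3b was found in 38.0% ± 4.54 of neuron members (SD, n = 12 pools). The shares were 27.7% ± 4.21 in neurons with Itgae or Gpr65 alone, 22.9% ± 4.09 in neurons with Ntsr1 or Cyp26b1 alone, 14.6% ± 1.86 in all neurons that were not members and 8.18% ± 0.954 in non-neuronal nuclei. Without thinning, the shares were 86.5%, 60.2%, 51.9%, 30.9% and 17.9%. Detection was thus highest in members at both depths.

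The nodose label was checked against marker lists. The 4 nodose markers, among them Phox2a and P2rx2, summed to 230.4 ± 36.6 CPM in neuron members and 153 ± 30.02 CPM in the remaining neurons (SD, n = 12), and the 6 jugular markers, among them Prdm12 and Calca, to 97.6 ± 21.7 and 202 ± 69.2 CPM. The label and the markers thus pointed the same way. In neuron cluster 11, which held more members than any other, Phox2a was at 0 and P2rx2 at 148 CPM. T or NK cell markers, of interest because Itgae is a lymphocyte gene, summed to 2.16 CPM in all members (0 to 4.27 across pools), with Cd3g, Cd8a and Nkg7 at 0. The 7 satellite glia markers summed to 549 CPM in all members, 309 ± 71.3 CPM in neuron members and 291 ± 59.1 CPM in the remaining neurons.

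The members did not form a single cluster. Neurons were clustered with the 4 rule genes left out, which gave 26 clusters. Cluster 11 held 1136 nuclei and 468 members, 33.7% of all members, and the rule was met by 41.2% of its nuclei. Its leading genes nevertheless were Itgae, Ntsr1, Cyp26b1 and Gpr65, followed by Chrm2, a muscarinic acetylcholine receptor, and Htr3b. Cluster 3 held 295 members among 1801 nuclei and was led by Cysltr2, a receptor for cysteinyl leukotrienes, and Gdpd4. Cluster 2 held 209 members among 1809 nuclei and was led by Itgae, Chrm2 and Gpr65. Cluster 13 held 114 members among 931 nuclei and was led by Kctd12 and Apoe, genes of satellite glia. Its nuclei were deep, with a median of 7681 UMIs, and the part of doublets in it was not tested.

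**Figure D1:**
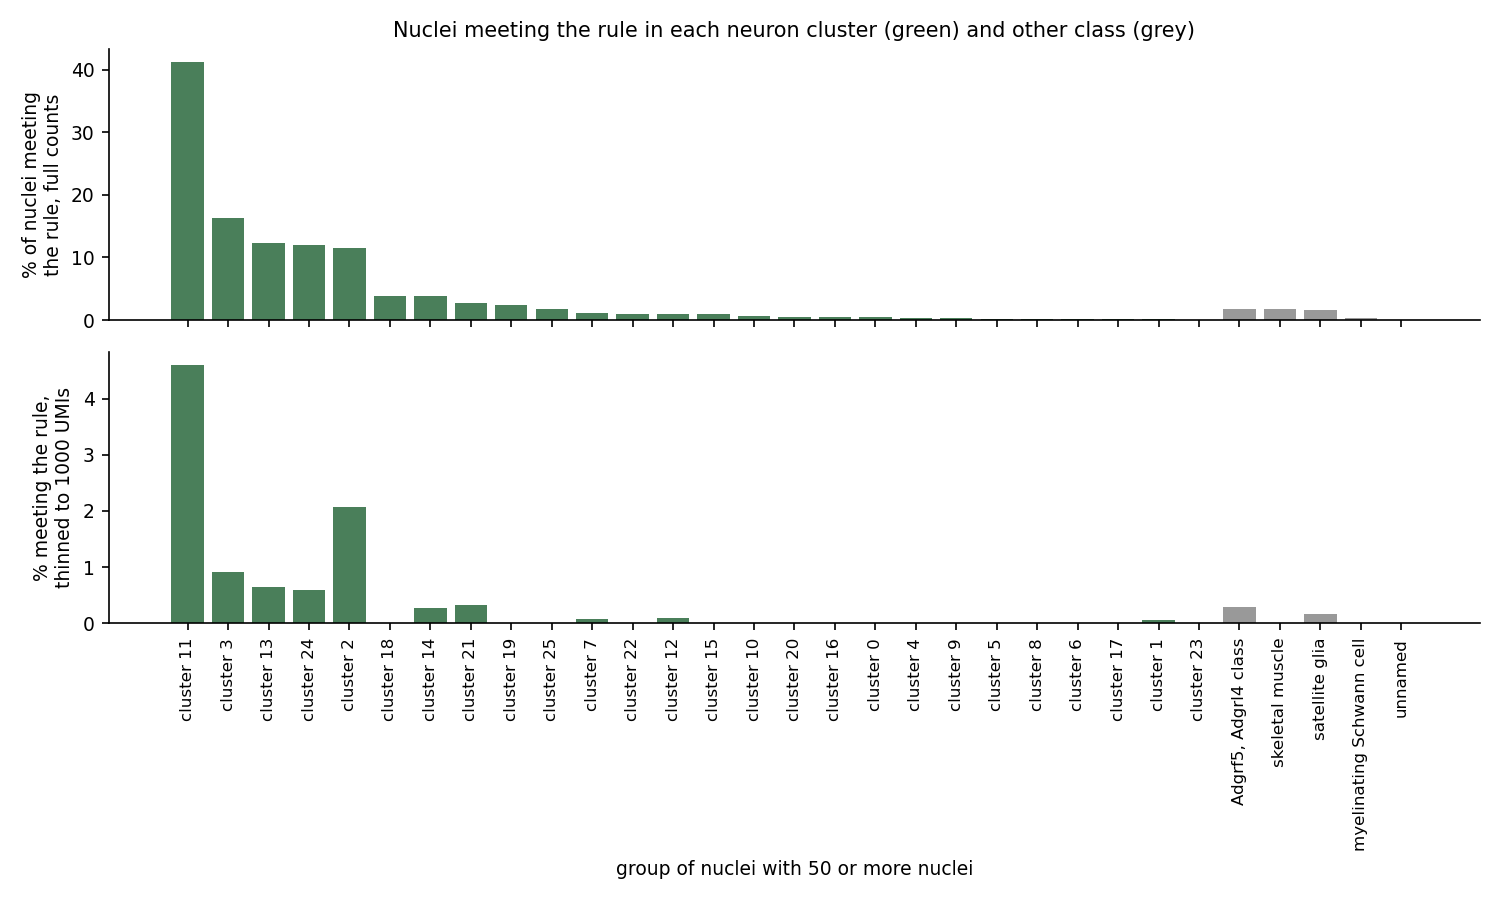
Percent of nuclei meeting the rule in each neuron cluster (green) and other class (grey) with 50 or more nuclei, with full counts (top) and with every nucleus thinned to 1000 UMIs (bottom). Cluster 11 stands highest in both panels, with 41.2% of its nuclei meeting the rule at full counts.

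Levels in these clusters are a description with no test: the clusters were made from the nuclei's other genes, and the rule, with depth, sets the levels of its own 4 genes in members. Those 4 are therefore given over all nuclei of a cluster. Cyp26b1 stood at 85.8 CPM in cluster 11, 54.4 in cluster 3, 29.0 in cluster 2 and 28.9 in cluster 13. Ntsr1 stood at 46.3, 16.7, 32.8 and 14.7 CPM in the same order. Cluster 11 thus had the highest level of both among these 4.

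Itgae stood at 347 CPM in cluster 11, 108 in cluster 3 and 413 in cluster 2. Among members, Chrm2 was 253 ± 55.3 CPM in cluster 11, 26.2 ± 11.6 in cluster 3 and 355 ± 172 in cluster 2 (SD, n = 12 pools). Cysltr2 ran the other way, at 74.7 ± 23.3 CPM in cluster 11 and 420 ± 64.8 CPM in cluster 3. Ret, the signalling receptor for GDNF family ligands, was 649 ± 88.9 CPM in cluster 11 and 1429 ± 128 CPM in cluster 3. The members, taken at full counts, therefore spanned a Chrm2-high set and a Cysltr2-high, Ret-high set. Members of cluster 13 had 570 ± 119 CPM of Apoe, a lipoprotein gene of satellite glia, against 17.6 to 28.8 CPM in the other 3.

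**Figure D2:**
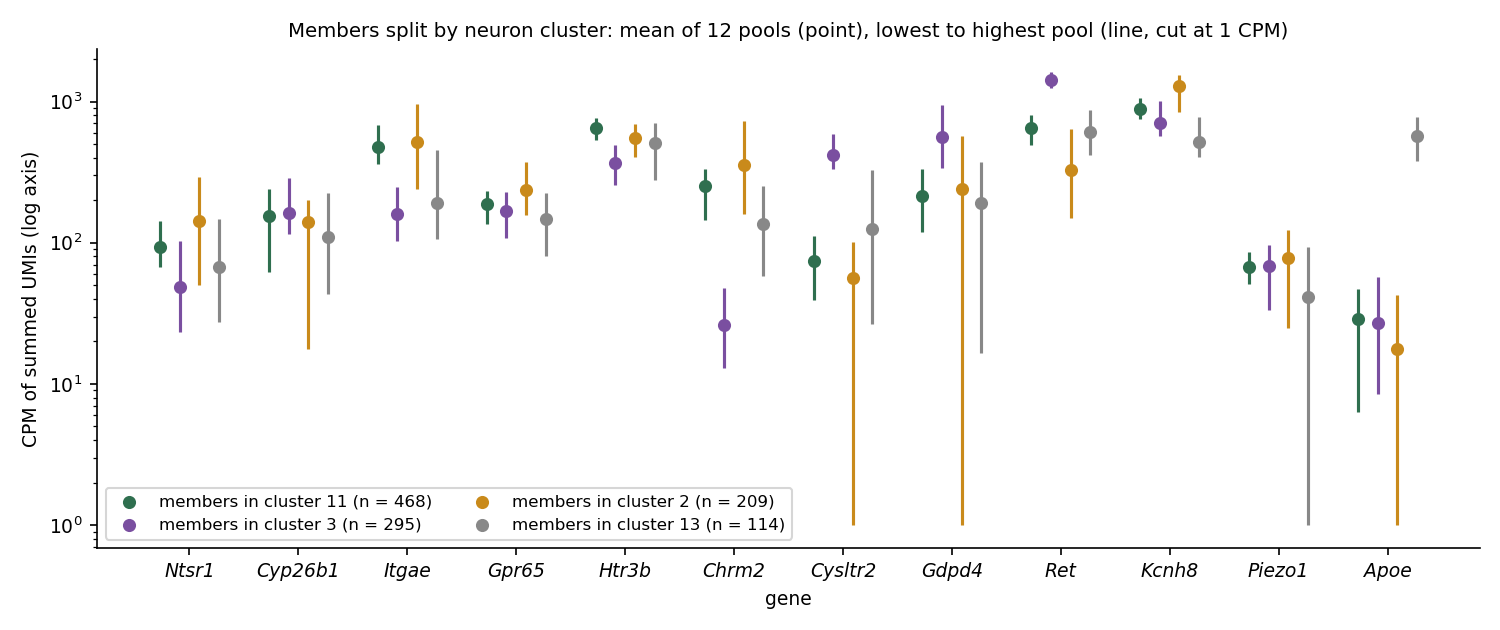
CPM of 12 genes (log axis) in members split by neuron cluster, as the mean of 12 pools (point) and the lowest to highest pool (line, cut at 1 CPM). Chrm2 is lowest and Cysltr2 and Ret are highest in members of cluster 3, and Apoe is high in members of cluster 13.

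Members with Ntsr1 and members with Cyp26b1 were both found in cluster 11. Of neuron members, cluster 11 held 39.2% of those with Ntsr1 alone, 34.6% of those with Cyp26b1 alone and 43.1% of those with both. Htr3b was found in 84.9%, 82.6% and 93.7% of members of these kinds, whose median depths were 6596, 7472 and 8791 UMIs.

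Against the remaining neurons of the same pools, more genes were lower than higher in members. On the channel and receptor lists too, fewer genes rose than fell: 1 rose and 9 fell of 25 potassium and HCN channels, 1 and 3 of 11 TRP and Piezo channels, 1 and 5 of 11 nicotinic and muscarinic receptors, and 0 and 6 of 12 gut hormone and feeding peptide receptors. These lists hold genes that lead other neuron groups of these data, so the counts are a description. Genes higher in members included Piezo1, Htr3b, Cnr1, Ret and Cysltr2, and genes lower included Kcnq3, Asic2 and Piezo2. Of 13455 genes tested with edgeR's quasi-likelihood test, pool as a block and the 4 rule genes left out of the count, 776 (5.77%) passed an adjusted p under 0.05 with a log2 fold change of at least 1 in size. Of these, 157 (1.17% of genes tested) were higher and 619 (4.6%) were lower in members. Since the rule genes were leading genes of a cluster of these nuclei, the adjusted p-values describe how far the sets were apart and are no independent evidence of a cell type. The depths differed too, with a median of 7378.5 UMIs in neuron members and 2929 in the remaining neurons. Thinning every nucleus to 1000 UMIs and applying the rule again gave 2046 of 8985 genes, 19 higher and 2027 lower, in a fit whose median log2 fold change over all genes was -0.87. The same without TMM library scaling gave 208, 69 higher and 139 lower. With the members kept from the full counts and only the sums thinned, 728 of 10607 passed, 147 higher and 581 lower. The last 2 were chosen after seeing the data.

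The rule genes themselves, as a description, stood at 76.2 CPM for Ntsr1, 141 for Cyp26b1, 321 for Itgae and 168 for Gpr65 in neuron members, and at 2.64, 8.42, 63.2 and 27.2 CPM in the remaining neurons.

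Among genes higher in members, Cavin2, which encodes a coat protein of caveolae, stood at 56.3 ± 18.0 CPM against 13.9 ± 1.48 (log2 fold change 2.01, SE 0.09). Piezo1, a mechanically gated cation channel, was 59.3 ± 12.5 CPM against 15.3 ± 3.98 (1.92, SE 0.09). Gdpd4 was 282 ± 62.5 CPM against 72.0 ± 15.9 (1.98, SE 0.06). Each of these was higher in members in 12 of 12 pools, and the ranges of the pools did not overlap. Here and below, one direction in all 12 pools was a condition for naming genes outside the function lists, so it adds no support. No overlap was found for 335 of the 776 genes called.

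Receptor genes were among the others. Cysltr2 stood at 167 CPM in members and 46.0 CPM in the remaining neurons. Cnr1, the cannabinoid receptor of neurons, stood at 273 and 104 CPM (log2 fold change 1.40). F2r, a thrombin receptor, stood at 647 and 260 CPM. All 3 were higher in every pool. Chrm2 stood at 157 and 66.6 CPM, Ret at 800 and 318 CPM, and Kcnh8, a voltage-gated potassium channel, at 753 and 274 CPM.

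Htr3b stood at 508 ± 48.3 CPM in members (426 to 584 across pools) and 199 ± 20.4 CPM in the remaining neurons (165 to 238), a log2 fold change of 1.35 (SE 0.04, edgeR adjusted p = 9.41e-31). Since Htr3b was a given marker from a cluster of these same nuclei, its rise is a description and the p is no independent evidence. Over all nuclei of clusters 11 and 2, members or not, Htr3b stood at 638 and 541 CPM. Its partner subunit Htr3a stood at 209 ± 31.6 and 109 ± 18.6 CPM (log2 fold change 0.93), short of the fold limit, and was higher in 12 of 12 pools. Of 7 serotonin receptors tested, Htr3b rose, and Htr4 and Htr7 fell from levels of 10.6 and 2.95 CPM.

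Among genes lower in members, Kcnq3, a subunit of the M-type potassium channel, stood at 254 ± 36.9 CPM against 1211 ± 166 (log2 fold change -2.25, SE 0.04). Kirrel3, an adhesion molecule, stood at 331 ± 98.2 CPM against 1561 ± 78.4 (-2.25, SE 0.07). Asic2, an acid-sensing channel subunit, stood at 841 ± 293 CPM against 2829 ± 292 (-1.80, SE 0.08). All 3 were lower in 12 of 12 pools, with no overlap.

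Piezo2, the channel of touch and proprioception, was lower in members where Piezo1 was higher, at 73.8 ± 28.2 CPM against 317 ± 81.3 (-2.07, SE 0.09). Tafa1, a secreted chemokine-like peptide, had the largest fall of the named genes, at 4.32 ± 2.29 CPM against 54.7 ± 33.2 (-3.59, SE 0.15). Grm8, a metabotropic glutamate receptor, fell by 2.72 on the log2 scale, and Sema3e, a guidance ligand, fell by 2.46.

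**Figure D3:**
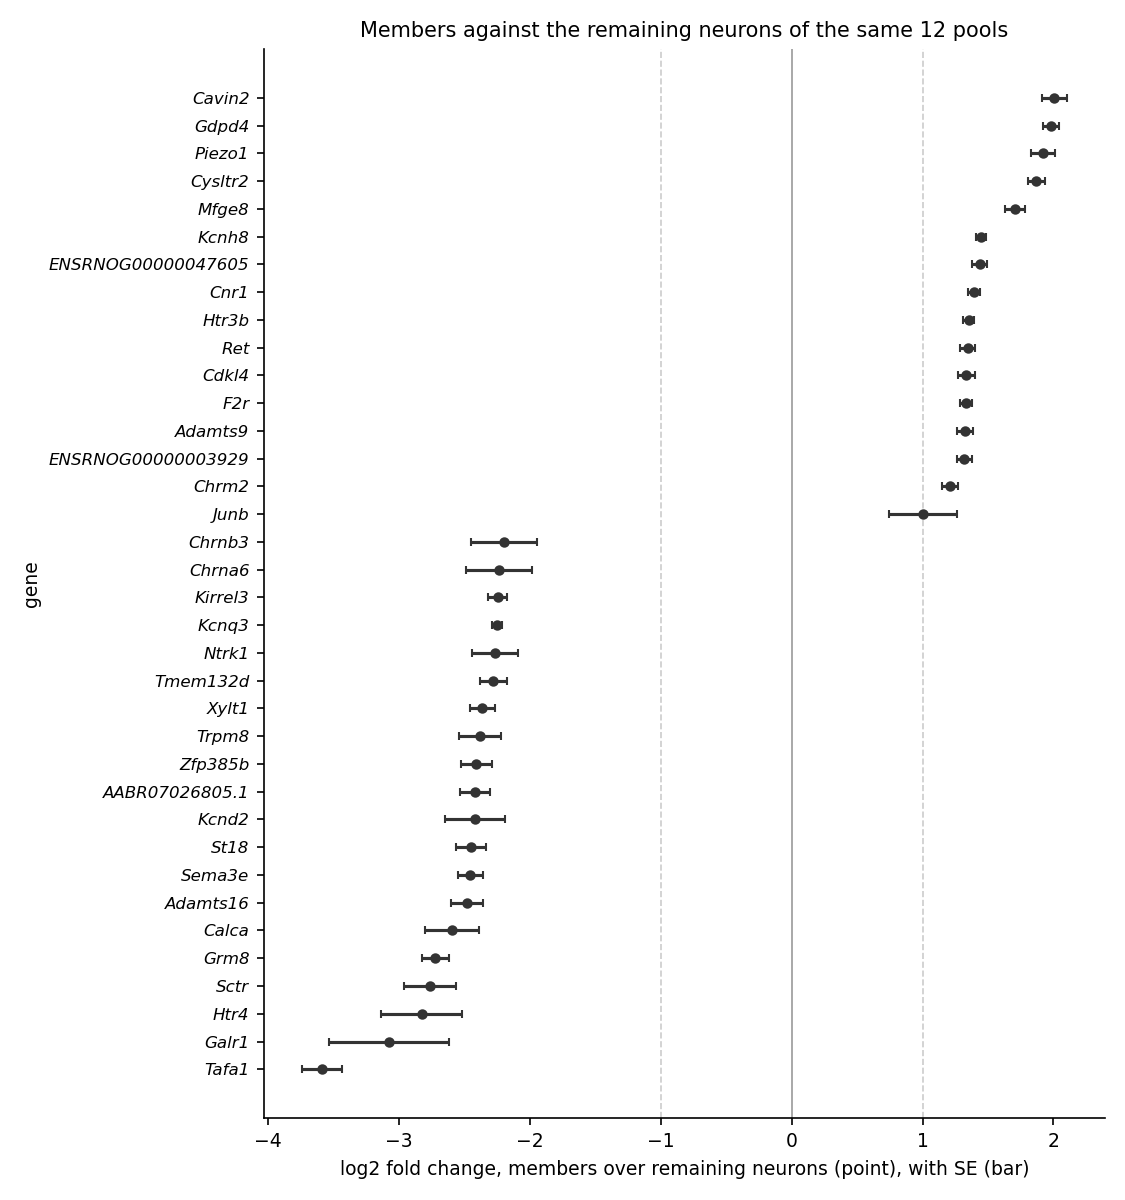
Log2 fold change of named genes in members over the remaining neurons of the same 12 pools (point) with its SE (bar); dashed lines mark the fold limit of 1. Cavin2 (2.01) lies at the upper end and Tafa1 (-3.59) at the lower end; Mfge8 and Cdkl4 reversed when the rule itself was applied to thinned nuclei.

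By function, the lists were read against the all-gene median log2 fold change of -0.01. The neurotensin list, apart from Ntsr1, had 6 genes tested, of which Sorcs3, a sortilin-family receptor, fell (62.4 against 171 CPM), and a median of -0.24. The neurotensin receptor Ntsr2 stood at 1.90 and 1.03 CPM and did not pass. Of 12 genes of retinoic acid synthesis and signalling, apart from Cyp26b1, only Aldh1a1, a retinoic acid synthesis enzyme, passed, from 4.04 to 2.34 CPM, and the median was -0.24. These are 1 of 6 and 1 of 12, where 5.77% of all genes tested passed.

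Acid-sensing genes apart from Gpr65 had 8 tested, of which Asic1, Asic2, Kcnk3 and Kcnk9 fell and none rose, with a median of -0.91. Of 16 integrin genes apart from Itgae, only Itga11 fell. Of 12 gut hormone and feeding peptide receptors, 6 fell (Crhr2, Cckar, Sctr, Glp1r, Npy1r and Galr1) and none rose, with a median of -0.92. Sctr, the secretin receptor, stood at 2.99 CPM against 19.5. The leptin receptor Lepr stood at 28.4 CPM in members and 40.1 in the remaining neurons, short of the fold limit.

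Of 11 TRP and Piezo channels, Piezo1 rose and Piezo2, Trpa1 and Trpm8 fell. Of 16 neuropeptide genes, Sst rose and 8 fell, among them Calca, the gene of CGRP, at 3.51 CPM against 24.2, and Tafa2 at 71.6 CPM against 269. Of 11 voltage-gated sodium channel genes, Scn1a fell, while Scn10a (1548 and 1168 CPM) and Scn9a (2451 and 1888 CPM), channels of nociceptors and other small sensory neurons, did not reach the fold limit. Of the potassium and HCN channels, Kcnk18 rose. Of 11 nicotinic and muscarinic receptors, Chrm2 rose and 5 fell, among them Chrna3, Chrnb4 and Chrm3. Of 44 genes that lead other vagal neuron groups, 4 rose (Gdpd4, Cysltr2, Ret and Chrm2) and 31 fell, with a median of -1.51. Such genes were chosen for high levels in groups within the remaining neurons, so their fall is a description. Crhr2, Cckar, Sctr, Glp1r, Chrna3, Trpa1 and Calca are among them and are also counted on the function lists.

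Against neurons with Itgae or Gpr65 and no UMI of Ntsr1 or Cyp26b1 (4264 nuclei, median 4560 UMIs), 179 of 10797 genes (1.66%) passed the same limits. Only 16 (0.148%) were higher in members and 163 (1.51%) were lower. The comparison set was mixed. Itgae or Gpr65 was found in 20.8% of the 2379 nuclei of cluster 0, led by Tafa4, Esr1 and Crhr2. It was found in 29.2% of the 1372 nuclei of cluster 7, led by Itm2a and S1pr3. The part of this mix in the genes called was not tested. With the rule applied to nuclei thinned to 1000 UMIs, 41 of 2583 genes passed, all lower, and 10 without TMM scaling; with the members kept and only the sums thinned, 83 of 5445 passed. Cavin2 was again higher, at 56.7 ± 18.4 CPM against 22.3 ± 4.73 (log2 fold change 1.35, SE 0.10), as were Mfge8, a secreted glycoprotein (80.6 against 38.6 CPM), and Piezo1 (59.7 against 28.9 CPM). Htr3b stood at 512 ± 46.1 CPM against 336 ± 32.7, a log2 fold change of 0.60 (SE 0.04), below the fold limit, with no overlap between the pools of either set.

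Lower in members were Tafa4 (56.7 against 218 CPM), Kcnq3 (256 against 825 CPM), Robo1, an axon guidance receptor (65.1 against 191 CPM), Chrna3, a nicotinic receptor subunit (24.3 against 72.1 CPM), and Crhr2, a receptor for urocortins (22.1 against 75.7 CPM). Of 43 genes that lead other vagal groups, 22 fell and none rose, with a median of -1.02 against 0.01 over all genes. This is again a description, since nuclei of such groups are part of the comparison set.

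Nuclei meeting the rule were more frequent in left than in right pools. Left pools held 4.91% ± 1.24 members and right pools 3.09% ± 0.595 (SD, n = 6 each), 1.59-fold more on the left (exact permutation test within labelled sex, 400 relabellings, two-sided p = 0.005, the smallest it can give, adjusted over 3 shares 0.015). On the left, ML1 to ML3 had 4.34%, 3.12% and 5.03% and FL1 to FL3 had 6.47%, 4.37% and 6.13%. On the right, MR1 to MR3 had 2.92%, 2.97% and 2.99% and FR1 to FR3 had 4.25%, 2.92% and 2.52%. The rule counts Cyp26b1, whose lower level in right neurons was known when the rule was set, so the outcome was partly fixed by that choice and the p is no independent evidence. With Ntsr1 alone in place of both genes, left pools had 1.86% and right pools 1.51% (exact permutation p = 0.205). FR1 stood above the other right pools, and the sides overlapped between FR1 and ML2. The exact 95% binomial interval of a single pool, which covers counting error only, ran for example from 3.68% to 5.07% in ML1.

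Without ML1 and FL1 the shares were 4.66% and 3.09% (exact permutation p = 0.01). Right minus left, the share differed by -1.20 percentage points within male-labelled pools and by -2.43 within female-labelled pools (exact permutation p = 0.1 each, the smallest 3 against 3 pools can give). Depth moved with side: the median of all nuclei was 3029 ± 521 UMIs in left and 2583 ± 428 in right pools (exact permutation p = 0.05). At 1000 UMIs per nucleus the member share was 0.490% ± 0.140 on the left and 0.290% ± 0.0909 on the right (exact permutation p = 0.025, adjusted 0.035), and at 2000 UMIs 1.74% and 1.34% (p = 0.18). The thinned shares rest on 4 to 17 members per pool. All member shares in this paragraph count Cyp26b1, so their p-values are no independent evidence either.

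With Cyp26b1 alone in place of both genes, the shares were 3.69% of left and 1.98% of right nuclei, given as a description for the same reason. Whether the Cyp26b1 and Ntsr1 differences differ was not tested. In the members' own makeup, also a description, those with Ntsr1 alone were 25.1% ± 2.99 of left and 36.6% ± 8.14 of right members, and those with Cyp26b1 alone 62.1% ± 2.96 and 51.1% ± 8.10.

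Cluster 11, made without the rule genes, held 5.58% ± 1.10 of left neurons and 3.66% ± 1.40 of right neurons (exact permutation p = 0.035, adjusted over 3 shares 0.035). The right pools ran from 2.21% to 6.29%, the highest being FR1, within the left range of 4.04% to 7.06%. The call was lost without some single pools, where 200 relabellings remain in place of 400. The difference was -1.92 percentage points in full and -2.44 to -1.62 without 1 pool. Leaving out 1 male-labelled right pool gave an exact permutation p of 0.1 (MR1), 0.075 (MR2) or 0.085 (MR3). Leaving out 1 female-labelled left pool gave a p of 0.06 (FL1), 0.065 (FL2) or 0.07 (FL3). It was 0.06 when ML1 and FL1 were both left out, and 0.005 when FR1 was. Cluster 3 held 7.95% of left and 5.99% of right neurons (exact permutation p = 0.01, adjusted over 8 comparisons 0.08). Over the same 8 comparisons, the adjusted exact permutation p of cluster 11 was 0.14, so neither cluster passed there.

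**Figure D4:**
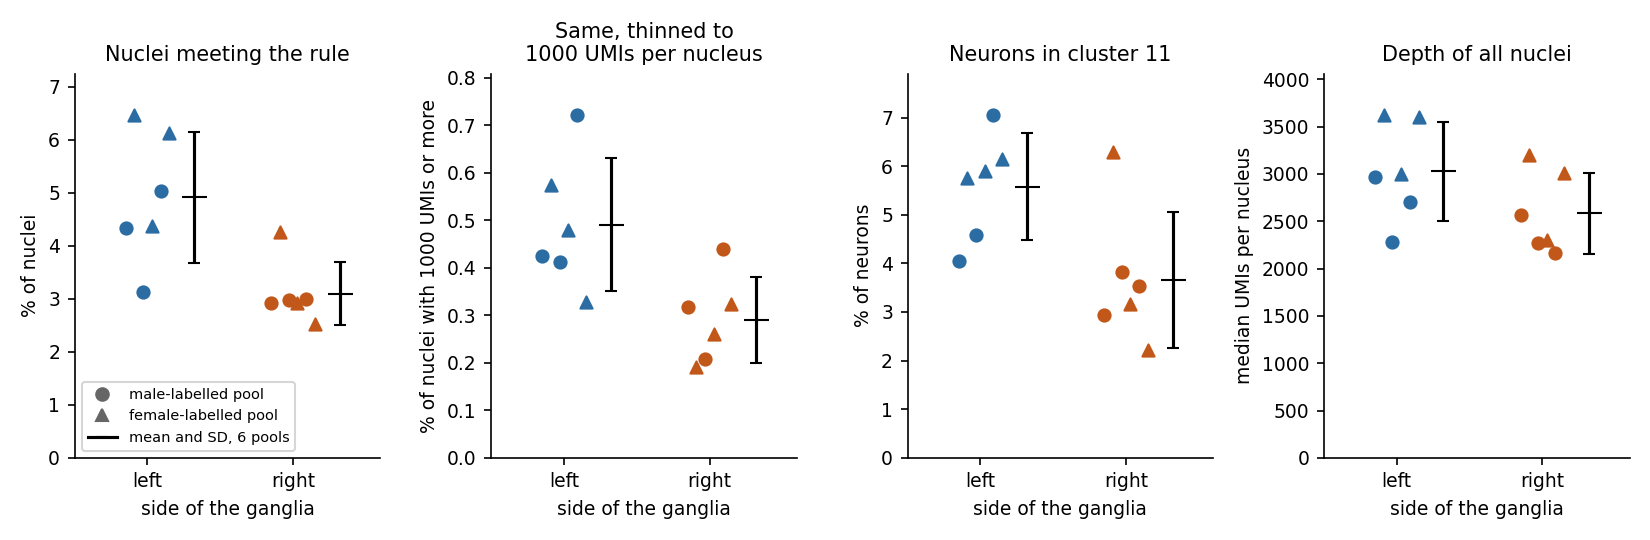
Percent of nuclei meeting the rule, the same at 1000 UMIs per nucleus, percent of neurons in cluster 11, and median UMIs of all nuclei, by side; points are 12 pools, bars the mean and SD of 6. Left pools average 4.91% and right pools 3.09% in the first panel, and left pools are also deeper.

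Within members, no gene passed the test by side. Of 9503 genes, 0 (0%) had an adjusted p under 0.05 with edgeR's quasi-likelihood test (386 had an unadjusted p under 0.05), DESeq2 called 3 and limma-voom 0. Without ML1 and FL1, edgeR again called 0, with 434 at an unadjusted p under 0.05. Ano3, a membrane protein of the anoctamin family, averaged 184 ± 51.5 CPM in left pools and 288 ± 63.5 in right pools (log2 fold change 0.66, SE 0.13, edgeR adjusted p = 0.0996), and AABR07007068.1 had 200 ± 13.1 and 144 ± 20.3 CPM (-0.45, SE 0.09, adjusted p = 0.0996), with no overlap in the latter. Galnt18 stood at 86.5 and 128 CPM, Itga4, an integrin alpha chain, at 30.5 and 47.3 CPM, and Tcf4, a transcription factor, at 359 and 278 CPM. Htr3b averaged 452 ± 49.96 CPM in left pools and 497 ± 18.2 in right pools (unadjusted p 0.063, edgeR adjusted p = 1.00), with overlapping pools.

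Labelled sex also gave 0 calls of 9503 genes (0%) with edgeR in members (701 at an unadjusted p under 0.05; DESeq2 2, limma-voom 0). Col6a5, a collagen chain, averaged 1883 ± 293 CPM over the male-labelled pools and 1317 ± 170 over the female-labelled ones (log2 fold change -0.52, edgeR adjusted p = 0.0933). Epha6, an ephrin receptor, stood at 259 and 172 CPM, Hspb1, a small heat shock protein, at 19.9 and 33.96 CPM, Pde1a, a cyclic nucleotide phosphodiesterase, at 62.9 and 90.8 CPM, and Col3a1, a collagen chain of fibroblasts, at 62.5 and 31.4 CPM. Without ML1 and FL1, 15 genes were called by labelled sex.

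Within all nuclei of cluster 11, 57 of 7890 genes (0.722%) passed by side, with 25 higher and 32 lower on the right, and 22 of the 57 showed no overlap between sides. Overlap was counted among called genes only, so it adds no support to the calls. The comparison by side in cluster 11 was added after seeing the data. DESeq2 called 45 and limma-voom 53, and 51 were called without ML1 and FL1. The cluster shares 468 nuclei with the members. When the called genes were also left out of the clustering, the matching cluster held 1163 nuclei, 1072 of them shared, and 49 of its 50 called genes were among the 57. Most nuclei were the same, so the shared calls were largely fixed in advance and add no support. A test of the difference between the cluster and the members was not run.

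Among genes lower on the right, Adora1, an adenosine receptor that inhibits transmission, stood at 91.5, 77.1, 120, 103, 102 and 120 CPM in ML1 to ML3 and FL1 to FL3, and at 57.9, 47.6, 42.3, 54.2, 50.5 and 78.2 CPM in MR1 to MR3 and FR1 to FR3. The left pools were higher apart from an overlap of ML2 with FR3 (log2 fold change -0.89, SE 0.14, edgeR adjusted p = 0.000149). Rasgef1b, an exchange factor of small GTPases, fell from 254 ± 23.9 to 150 ± 32.03 CPM (-0.74, SE 0.10), Shisa9, an AMPA receptor auxiliary protein, from 97.0 ± 7.64 to 50.6 ± 9.99 CPM (-0.93, SE 0.14), and Opcml, a cell adhesion molecule, from 508 ± 107 to 278 ± 94.3 CPM (-0.85, SE 0.13). None of the 3 overlapped between sides. Tenm2, a synaptic adhesion protein, fell from 1474 to 1055 CPM. Esr1, an oestrogen receptor, fell from 51.5 ± 9.27 to 22.5 ± 8.02 CPM, and the glutamate receptor subunit Gria1 from 72.2 to 38.6 CPM; both were picked out after their values were seen.

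Genes higher on the right included Ano3, at 165 ± 66.5 CPM in left pools and 307 ± 58.7 in right pools (log2 fold change 0.90, SE 0.14, edgeR adjusted p = 0.000137), with an overlap of FL1 and FL2 with FR3. Prkd1, a protein kinase, rose from 259 ± 27.3 to 369 ± 33.6 CPM and Pde4b, a cAMP phosphodiesterase, from 567 ± 56.9 to 786 ± 92.8 CPM, both without overlap. Chrm2 rose from 179 ± 54.4 to 271 ± 26.0 CPM (0.56, edgeR adjusted p = 0.00484), Cartpt, a neuropeptide gene, from 61.3 to 93.4 CPM, and the sodium channel Scn3a from 142 to 196 CPM. On the function lists these were 1 of 5 purinergic genes (Adora1, lower), 1 of 6 neuropeptides (Cartpt), 1 of 11 sodium channels (Scn3a) and 1 of 5 cholinergic receptors (Chrm2). Over all genes tested, 0.722% were called. None was called of 21 potassium and HCN channels, 10 integrins, 9 TRP and Piezo channels or 9 inflammatory mediator receptors. The same held for the neurotensin, retinoic acid, serotonin, acid-sensing, gut hormone and neurotrophin lists.

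Of the rule genes, which the clustering did not use, Cyp26b1 was lower on the right in cluster 11. It stood at 120, 122, 95.9, 104, 107 and 86.8 CPM in ML1 to ML3 and FL1 to FL3, and at 33.1, 73.6, 78.9, 78.2, 78.6 and 61.0 CPM in MR1 to MR3 and FR1 to FR3. Every left pool was higher than every right pool, with means of 106 ± 13.7 and 67.2 ± 18.1 CPM (log2 fold change -0.63, SE 0.14, edgeR adjusted p = 0.0139). MR1 was the lowest pool. A lower Cyp26b1 level in right neurons was among the results already known when the rule was set, and it is no independent finding here. In all neurons Cyp26b1 averaged 27.4 ± 3.14 CPM in left pools and 16.1 ± 2.64 in right pools.

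Ntsr1 went the other way without passing, at 38.5 ± 6.65 CPM in left pools and 57.2 ± 15.4 in right pools (log2 fold change 0.57, SE 0.17, edgeR adjusted p = 0.157). Itgae (342 and 381 CPM), Gpr65 (162 and 150 CPM) and Htr3b (635 and 678 CPM) had overlapping pools and no call. The number of Cyp26b1 UMIs per Ntsr1 UMI in cluster 11, a ratio chosen after its values were seen, was 2.83 ± 0.643 on the left (2.03 to 3.61) and 1.25 ± 0.470 on the right (0.571 to 1.87), with no overlap. It uses the rule genes' own values and is a description.

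Markers of other cells in cluster 11 are given beside these results. The 6 skeletal muscle markers in the gene list summed to 112 to 260 CPM in left pools and 131 to 686 CPM in right pools, the highest in FR2, and the 7 satellite glia markers to 55.3 to 84.1 CPM and 49.3 to 132 CPM. Their part in the results by side was not tested. Without FR2, 46 genes were called by side in the cluster, and without FR1, 40.

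**Figure D5:**
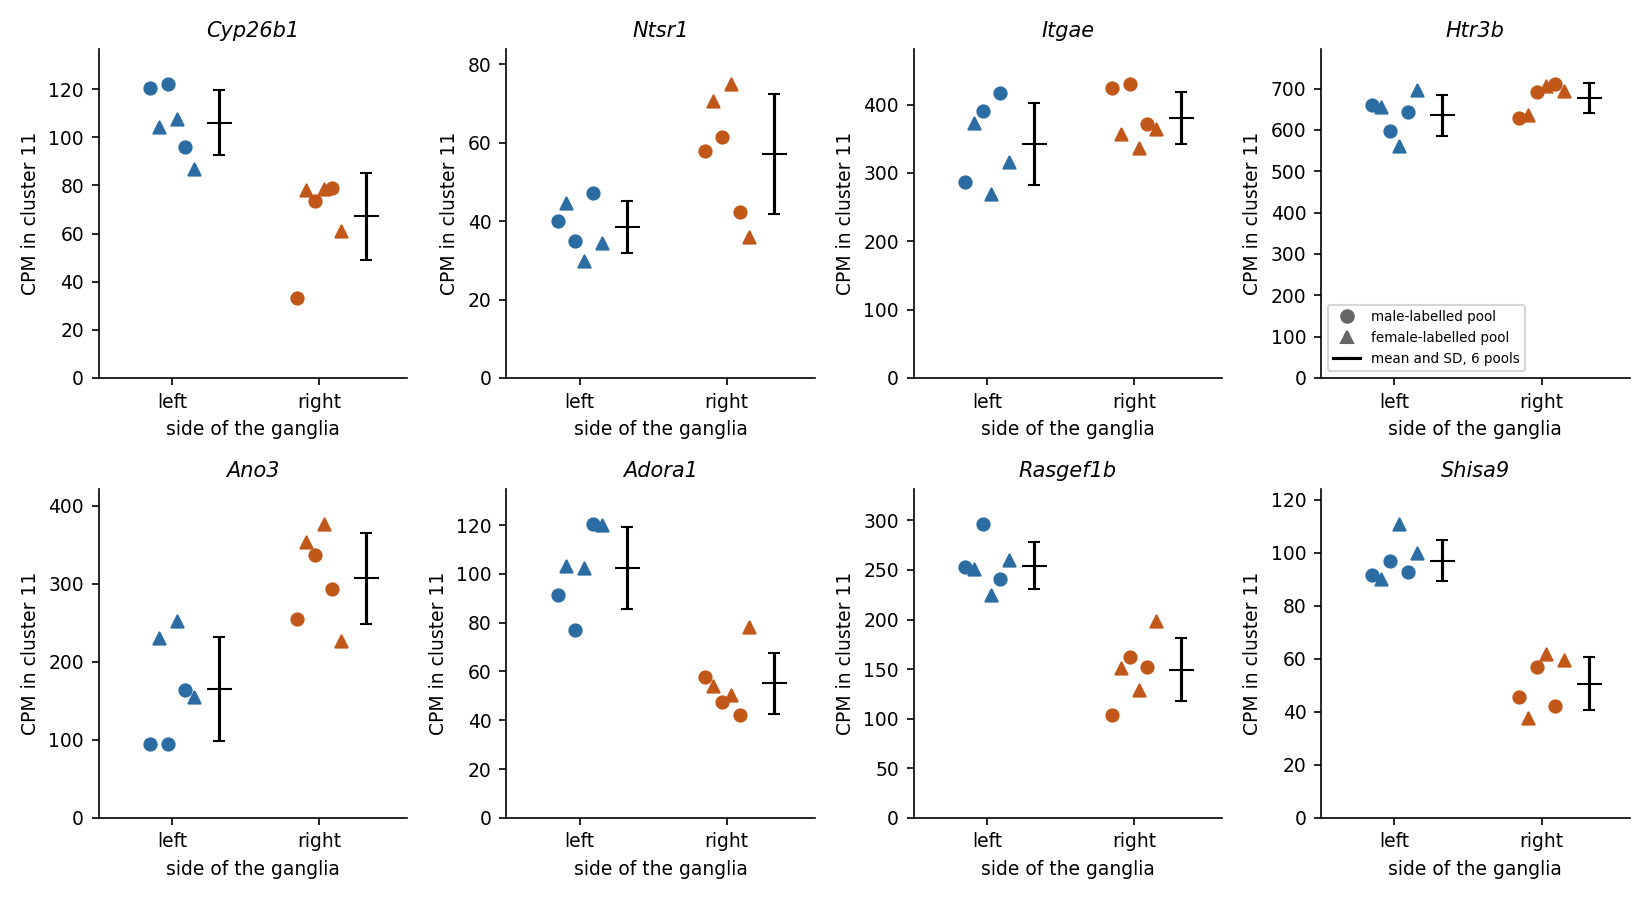
CPM per pool in cluster 11 by side for Cyp26b1, Ntsr1, Itgae and Htr3b and for 4 genes called by side; points are pools, bars the mean and SD of 6. Cyp26b1, Rasgef1b and Shisa9 do not overlap between sides, with Cyp26b1 means of 106 on the left and 67.2 on the right.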

How the data were processed

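Nuclear RNA was measured in nodose ganglia of 12 pools of rats, barcoded together and split over 8 sublibraries, and the pool was taken from the nucleus table. The authors deposited a matrix of raw UMI counts per nucleus and gene (36741 nuclei, 30560 genes, 139965360 UMIs), and no normalization had been applied. The submitters' processing notes name R 4.3.2, Seurat 4.1.3 and the genome build mRatBN7.2. The aligner is not given in the sources used here, nor is the use of strand in counting. RefSeq, on an assembly other than the build of the files, lists a gene overlapping Itgae (Haspin), Gpr65 (Galc) and Ntsr1 (LOC121627837), and none for Cyp26b1 or Htr3b, so reads of overlapping pairs may not be told apart.

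A minimum of 300 genes and a maximum of 5% mitochondrial UMIs removed 1 nucleus. Scrublet called 2 doublets, too few to have worked, and no nucleus was removed for it. Among the 1819 nuclei in the 5% highest scores, 94 were members. Neurons were clustered with scanpy 1.11.5 and leidenalg 0.10.2 (2000 variable genes, 30 components, 20 neighbours, seed 1) without the 4 rule genes, and classes were named by likeness to marker lists. UMIs were summed per pool and tested with edgeR 4.0.16 under R 4.3.3 (quasi-likelihood, TMM, filterByExpr, Benjamini-Hochberg adjustment over all genes tested). CPM are counts scaled to the TMM-normalised library size. By side and labelled sex both terms were fitted together; against other neurons the pool was a block. The fit by side was also run on simulated counts, whose results are not given here. Shares were compared by exact permutation of side labels within labelled sex. Thinning drew 1000 UMIs per nucleus without replacement and left out 1986 shallower nuclei.

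The members and gene lists were chosen with earlier results of these data known. Named genes were the rule genes and Htr3b; by side or sex the 10 smallest p-values, or 5 where none passed; against other neurons, among called genes with at least 50 CPM in the higher set and one direction in all 12 pools, the 15 most raised and 10 most lowered; and up to 4 genes of each function list, by level and by fold. Some genes are not reported here and were left out of the lists' counts and of the named genes. Alternatives were DESeq2 1.42.0, limma 3.58.1 (voom), other scalings and filters, stricter rules, thinning, and leaving out pools.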

Additional observations from a re-analysis of the deposited data

Results flagged for a closer look

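FR1 stood apart from the other right pools in the share of nuclei meeting the rule, at 4.25% against 2.52% to 2.99% in the other 5. Its gap to the next pool was large for the range of the 6 pools. Of 48 groups of pools examined in this way, 1 stood out, where chance gives about 1 in 20. FR1 also had the highest share of neurons in cluster 11 among right pools, at 6.29%.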

How the results depend on the processing

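Every alternative for the member share, thinned or not, counted Cyp26b1, except Ntsr1 alone in place of both genes. A lower Cyp26b1 level in right neurons was known when the rule was set, so a kept direction is no independent evidence. The lower share of members on the right kept its direction under every alternative run. It lost its call with Ntsr1 alone in place of both genes (-0.35 percentage points), for members in cluster 11 as a share of neurons (-0.95, chosen after seeing the data), and within male-labelled (-1.20) or female-labelled pools (-2.43), where 3 against 3 cannot pass; leaving out 1 pool gave -2.17 to -1.50. The thinned share lost its call at 2000 UMIs (-0.402), over neurons (-0.183) and within male-labelled (-0.198) or female-labelled pools (-0.202), and ranged from -0.232 to -0.154 without 1 pool. The share of neurons in cluster 11 lost its call at resolution 2 (-1.39), without ML1 and FL1 (-2.26), within male-labelled (-1.79) or female-labelled pools (-2.04) and with the replicate block (-1.92, exact permutation p = 0.0625), and ranged from -2.44 to -1.62 without 1 pool, losing its call in 6 of these. Whether the replicate numbers pair the pools was not settled. Over genes in members, same-numbered left and right pools correlated at -0.02 to 0.11, and 1 of 6 pairs was over 0.1. The sums rest on 73 to 199 members per pool, and counting noise lowers such correlations, so they cannot exclude shared rats. With the replicate block, 2 genes were called by side in members and 84 in cluster 11.

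By side in members, where none was called, 3 were called with DESeq2, 28 without a filter on low counts, 2 with both sums at 2 or more UMIs, 1 in neuron-like members, 16 in members of cluster 11, 1 in members of the 3 clusters that hold most, 57 in all nuclei of cluster 11 (the last 3 chosen after seeing the data), and 0 to 1 without 1 pool. By labelled sex, 2 were called with DESeq2, 53 without a filter, 5 in neuron-like members, 10 in cluster 11, 15 without ML1 and FL1, and 0 to 7 without 1 pool. Against neurons with Itgae or Gpr65 alone, the count was 289 without a filter, 361 with both sums at 2 or more, 2904 without the fold limit, 116 with no replicate block (pool not fitted), 41 after thinning, 10 after thinning without TMM factors and 83 with the rule on full counts and thinned sums, and 159 to 204 without 1 pool. Against the remaining neurons it was 5960 without the fold limit, 2046 after thinning and 208 after thinning without TMM, and 736 to 799 without 1 pool. The cause was not tested.

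After thinning, the TMM-scaled fit moved the median log2 fold change over all genes to -0.87, and the sums held 4000 to 17000 UMIs per pool. In that fit Cdkl4 (-0.00504), Gap43 (-0.72), Itgb1 (-1.26), Kcnip4 (-0.24), Kcnma1 (-0.50), Mfge8 (-1.22), Ntrk2 (-0.82), P2rx3 (-0.98), Scn10a (-0.76), Scn9a (-0.48), Sorl1 (-0.74), Sort1 (-0.40), Trpc4 (-0.20) and Trpm3 (-0.0632) reversed against the remaining neurons, and Itgae (-0.23) against neurons with Itgae or Gpr65 alone. Without TMM, Itgb1 (-0.42), Mfge8 (-0.42) and P2rx3 (-0.14) reversed, and with the rule on full counts Gap43 (-0.0116). The thinned alternatives other than the TMM-scaled one were chosen after seeing the data. Depth limits the rule, since a nucleus with few UMIs can miss it while expressing all 4 genes.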
